A study of Rattus norvegicus with 3 samples.

Results

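Antigen presentation by the major histocompatibility complex (MHC) was described through 10 genes chosen by symbol for their known roles, out of 13301 rat genes with a named probe on the array. The class II genes were RT1-Da, RT1-Db1, RT1-Ba, RT1-Bb, Cd74 and Ciita, and the class I genes were B2m, Tap1, Tap2 and Tapbp. All 10 had a probe, 15 in total, and 9 were well above background on at least 1 array by the scanner software's own call. Across the series this held for 10009 genes, which form the background below.

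RNA samples from the inbred rat strain F344 were compared, each on 1 whole-genome array with a single dye, so no difference could be tested. COS1NR is an osteosarcoma cell line and MFH1NR a cell line of malignant fibrous histiocytoma (MFH), a soft tissue sarcoma without a clear line of differentiation. Per the methods, both came from tumours induced by 4-hydroxy quinolone 1-oxide and carry a p53 mutation. The third sample is mesenchymal stem cells (MSCs) cultured from femur bone marrow by adherence to plastic and, per the paper, not sorted by surface markers. MSCs were also grown with a higher share of fetal bovine serum than the sarcoma lines. None of the cultures is described as treated with interferon or any other agent. The question was how far the sarcoma cells differ from the MSCs, their presumed cells of origin, in the genes of antigen presentation.

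Class I molecules are found on nearly all nucleated cells and show peptides from the cytosol to CD8 T cells. Their heavy chain pairs with β2-microglobulin (B2m), and peptides cut by the proteasome enter the endoplasmic reticulum through the transporter made of Tap1 and Tap2, where tapasin (Tapbp) helps to load them. Class II molecules are mostly restricted to dendritic cells, macrophages and B cells, and show peptides from endocytosed material to CD4 T cells. In the rat, RT1-Da and RT1-Db1 encode the α and β chains of the DR-like molecule, RT1-Ba and RT1-Bb those of the DQ-like molecule, Cd74 is the invariant chain that guards the peptide groove, and Ciita is the coactivator that switches class II genes on at their shared promoter elements. Interferon-γ is known to raise both classes, class I in part through Irf1.

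The promoters of the class II chains are shown first because their shared elements are what Ciita acts through. The windows cover the 100 bases from 130 to 31 before the annotated start in RefSeq on the GRCr8 assembly, which is of another strain than F344, and are written in the gene's direction. Capitals mark matches to the X box letters AGNNACNGA and the Y box letters ATTGG, searched on both strands.
RT1-Da, chr20:4515285-4515384, plus strand: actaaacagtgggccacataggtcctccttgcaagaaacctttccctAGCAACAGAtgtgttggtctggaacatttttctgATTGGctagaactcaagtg
RT1-Db1, chr20:4560193-4560292, minus strand: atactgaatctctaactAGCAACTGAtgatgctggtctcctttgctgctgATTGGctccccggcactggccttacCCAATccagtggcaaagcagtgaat
RT1-Ba, chr20:4576927-4577026, plus strand: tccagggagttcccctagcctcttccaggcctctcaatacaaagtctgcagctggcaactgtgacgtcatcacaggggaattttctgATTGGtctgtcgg
RT1-Bb, chr20:4604149-4604248, minus strand: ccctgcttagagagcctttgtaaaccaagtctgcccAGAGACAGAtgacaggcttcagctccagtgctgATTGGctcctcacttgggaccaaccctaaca
Of 5 class II genes with a promoter in the table, 5 held the Y box letters within the 250 bases before the start, against 34.0% of all 33469 promoters. The X box letters, which were chosen after reading these windows, were found in 3 (RT1-Da, RT1-Db1 and RT1-Bb), against 14.6% of all promoters. Ciita had no entry.

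The class I genes are shown with the 160 bases before their starts, and capitals mark interferon response letters GAAANNGAA and κB letters GGGNNTTTC on either strand.
B2m, chr3:129549170-129549329, plus strand: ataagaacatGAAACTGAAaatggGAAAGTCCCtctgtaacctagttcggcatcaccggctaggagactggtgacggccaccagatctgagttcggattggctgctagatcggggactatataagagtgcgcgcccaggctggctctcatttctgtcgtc
Tap1, chr20:4668544-4668703, minus strand: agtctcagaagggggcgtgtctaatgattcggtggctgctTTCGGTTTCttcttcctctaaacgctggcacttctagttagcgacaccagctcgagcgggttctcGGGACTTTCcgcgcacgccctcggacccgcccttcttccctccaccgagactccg
Tap2, chr20:4652297-4652456, minus strand: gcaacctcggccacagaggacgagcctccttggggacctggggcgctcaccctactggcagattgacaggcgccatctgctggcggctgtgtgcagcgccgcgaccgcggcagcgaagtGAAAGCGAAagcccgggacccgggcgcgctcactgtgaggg
Tapbp, chr20:4967878-4968037, minus strand: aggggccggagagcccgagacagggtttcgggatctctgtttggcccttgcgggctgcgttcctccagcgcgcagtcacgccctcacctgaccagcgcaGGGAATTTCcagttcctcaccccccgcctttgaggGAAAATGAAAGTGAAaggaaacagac
All 4 held the interferon response letters within 250 bases before the start, against 8.12% of all promoters and 0 of 5 class II genes. The κB letters were found in 3 of 4 (B2m, Tap1 and Tapbp), against 3.70% of all promoters, and among class II genes in 1 (Cd74). The Y box letters were found in 1 of 4 class I genes (B2m), as were the X box letters (Tap1). A match is a string of letters and was not tested as a binding site.

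The arrays were of similar quality. Between 56.6% and 59.7% of spots were well above background, no spot was saturated, and the 75th percentile of the processed intensity was 589 in MSCs, against 774 in COS1NR and 994 in MFH1NR. Ratios below are taken after each intensity is divided by that percentile, whereas intensities are printed as deposited. The only spreads available are technical. Probes printed 10 times varied on an array with a median SD of 0.0478 to 0.0610 in log2, and 2 probes of the same gene disagreed on the log2 ratio to MSCs by 0.28 for COS1NR and 0.31 for MFH1NR, and on that of MFH1NR to COS1NR by 0.15 (medians). For 1 gene in 10, these differences exceeded 0.91, 0.98 and 0.59. The MSC array was on a different slide from that of both sarcoma lines, and in a comparison with MSCs the slide, the serum share of the medium and the cell type cannot be told apart. Both lines were also set against the same MSC array, so their ratios to it are not independent.

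Class II genes were seen in the MSC culture and in neither sarcoma line. Of the 6 class II members, 5 were well above background in MSCs and 0 in COS1NR or MFH1NR, and 4 (RT1-Da, RT1-Db1, RT1-Bb and Cd74) were at least 2-fold lower in both lines. Of all genes used, 12.9% were at least 2-fold lower in both lines, 19.4% in COS1NR and 21.2% in MFH1NR, and 5.86% were well above background in MSCs only. These 5 genes passed the filter on dim probes through the MSC array alone, so their direction was set by that filter and their counts are given as a description. Where a sarcoma value was not well above background, the ratio is a bound, taken against the lowest scaled intensity with that call on the same array.

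**Figure D1:**
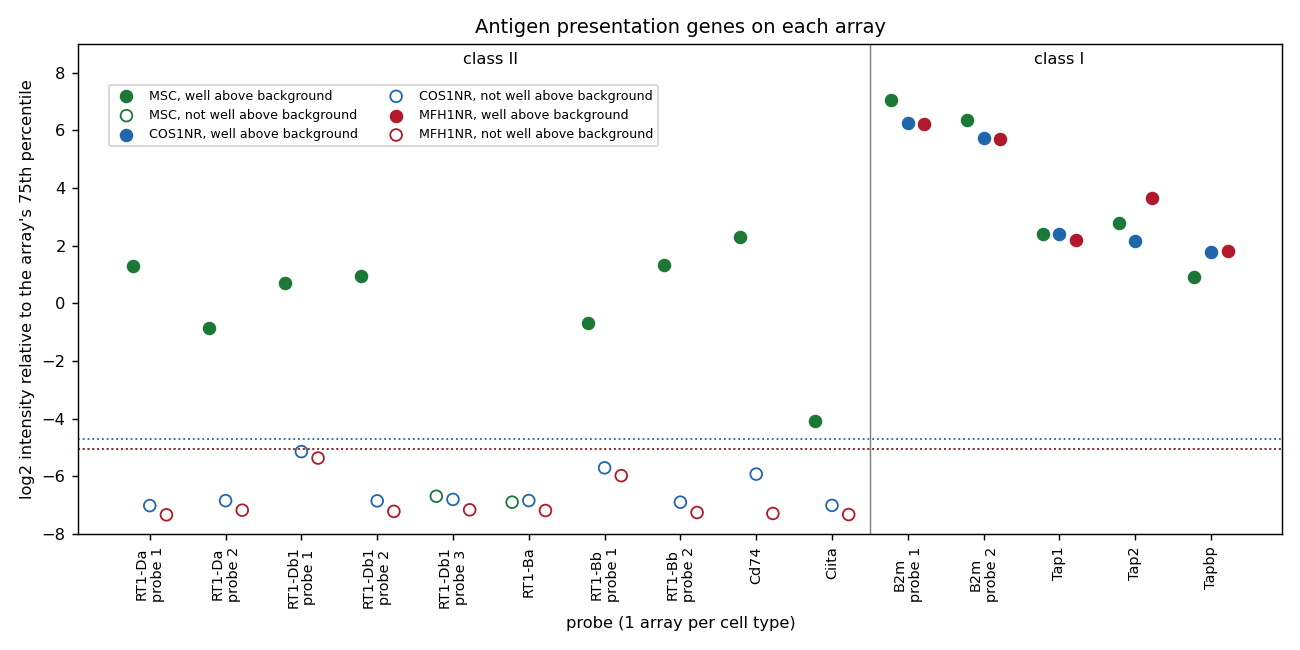
Log2 intensity of each of the 15 probes over the 75th percentile of its own array, in MSCs, COS1NR and MFH1NR (1 array each, no error bars). Filled points are well above background, open points are not and have no order among themselves, and dotted lines give the lowest level with that call on each array (those of MSCs and MFH1NR lie on top of each other). Of the 10 class II probes, 8 are filled in MSCs only and 2 (the third of RT1-Db1 and that of RT1-Ba) on no array, whereas the 5 class I probes are filled on all 3.

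The invariant chain Cd74 had an intensity of 2909 in MSCs, against 12.7 in COS1NR and 6.35 in MFH1NR. The sarcoma values were below the lowest intensities called well above background there (29.4 and 30.1), which puts Cd74 lower by at least 130-fold in COS1NR and 163-fold in MFH1NR. These were the largest bounds among the members.

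RT1-Da, the DR-like α chain, had 1431 in MSCs, against 5.97 in COS1NR and 6.15 in MFH1NR by its first probe, and 323, 6.73 and 6.87 by the second. Both probes were thus lit in MSCs and dark in both lines. The first put RT1-Da at least 64.0-fold lower in COS1NR and 80.3-fold lower in MFH1NR, and the second at least 14.5-fold and 18.2-fold lower.

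The partner chain RT1-Db1 had 3 probes. The first read 965, 21.9 and 24.1 in MSCs, COS1NR and MFH1NR, and the second 1141, 6.70 and 6.68, for decreases of at least 43.1-fold and 51.0-fold in COS1NR and 54.2-fold and 64.0-fold in MFH1NR. The third probe was dark on every array, at 5.70, 6.93 and 6.94, and gives no ratio. The α and β chains of the DR-like molecule therefore showed the same pattern by 4 of their 5 probes.

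The DQ-like pair was seen only through its β chain. RT1-Bb had 366, 14.8 and 15.8 in MSCs, COS1NR and MFH1NR by its first probe, and 1480, 6.49 and 6.50 by the second. It was lower by at least 16.4-fold in COS1NR and 20.5-fold in MFH1NR by the first probe, and at least 66.2-fold and 83.1-fold lower by the second. The single probe of the α chain RT1-Ba was at 4.94 in MSCs, against 6.75 in COS1NR and 6.82 in MFH1NR, none of them well above background. Whether RT1-Ba RNA was low in these MSCs or not caught by this probe was not tested.

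Ciita had 35.1 in MSCs, which was well above background with a software error of 14.5%, and 6.01 and 6.19 in COS1NR and MFH1NR, which were not. The MSC value lay so near the limit that the decrease was bounded only at 1.57-fold for COS1NR and 1.97-fold for MFH1NR. Ciita was therefore seen in MSCs and not in the lines, but a 2-fold difference could not be established.

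**Figure D2:**
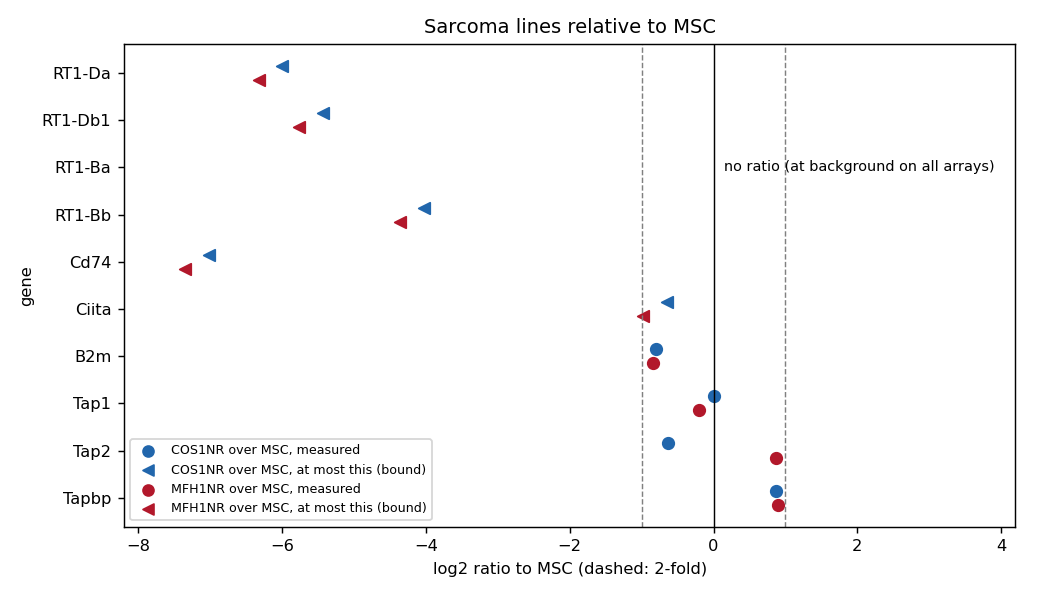
Log2 ratio of COS1NR (blue) and MFH1NR (red) to MSCs for the 9 members with a ratio (1 array per cell type), with RT1-Ba listed but not plotted. Circles are measured on both arrays and triangles are bounds that the true ratio lies at or below, and dashed lines mark 2-fold. Cd74, RT1-Da, RT1-Db1 and RT1-Bb lie beyond a log2 ratio of -4 in both lines, and all class I genes lie within 2-fold.

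Markers of macrophages moved in the same direction on the same arrays. All 12 macrophage markers were well above background in MSCs, against 5 in COS1NR and 4 in MFH1NR, and 12 of 12 were at least 2-fold lower in both lines, against 12.9% of all genes used. Of these, 7 were well above background in MSCs only, so their direction too was set by the filter. The sum of their scaled intensities was 147 in MSCs, against 8.97 in COS1NR and 4.27 in MFH1NR. Lysozyme Lyz2 had 32304, 23.5 and 15.5 in MSCs, COS1NR and MFH1NR, the signalling adaptor Tyrobp 11921, 50.3 and 61.3, and the myeloid transcription factor Spi1 391, 10.9 and 6.33. The M-CSF receptor Csf1r had 1238, 51.7 and 48.9. The pan-leukocyte gene Ptprc was well above background in MSCs, but at only 57.5 to 78.5 by its 3 probes.

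Other leukocyte markers were fewer. Of 3 dendritic cell markers with a probe, Cd83 had 4867, 429 and 189 in MSCs, COS1NR and MFH1NR, Ccr7 had 53.5 in MSCs and was not well above background in either line, and Xcr1 was dark on all arrays. The B cell gene Cd79b and the T cell genes Cd3e and Cd3g were dark on all arrays, while Cd3d (452, 893 and 627) was seen on all arrays, Lck (23.1, 73.8 and 22.9) in MSCs and COS1NR, and Zap70 (173, 6.16 and 8.18) in MSCs only. Cd2 had no value after outlier spots were left out. The B cell marker used, Blnk, had 382, 123 and 96.5, and was 4.09-fold lower in COS1NR and 6.68-fold lower in MFH1NR. The summed level of the T cell list was 1.13, 1.28 and 0.68. Mesenchymal markers were lower as well. In COS1NR 6 of 8 were at least 2-fold lower (19.4% of all genes used) with a median log2 ratio of -4.39, against -4.18 for the macrophage list, and in both lines 3 of 8 were (12.9%). The second probes of Col1a1 and Col1a2 gave -3.35 and -4.56 in MFH1NR, where the probes counted gave -0.38 and -0.98. In COS1NR those of Col1a1 and Cd44 gave -3.69 and -1.93, where the probes counted gave -0.33 and -0.57. All 8 mesenchymal markers were well above background in MSCs, against 6 in COS1NR and 7 in MFH1NR, with summed levels of 436, 139 and 242, and the genes not seen were Thy1 in COS1NR and Eng in both lines. The part of macrophages or other cells in the class II result was not tested, and in such bulk cultures fewer cells of a type and less RNA per cell cannot be told apart.

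**Figure D3:**
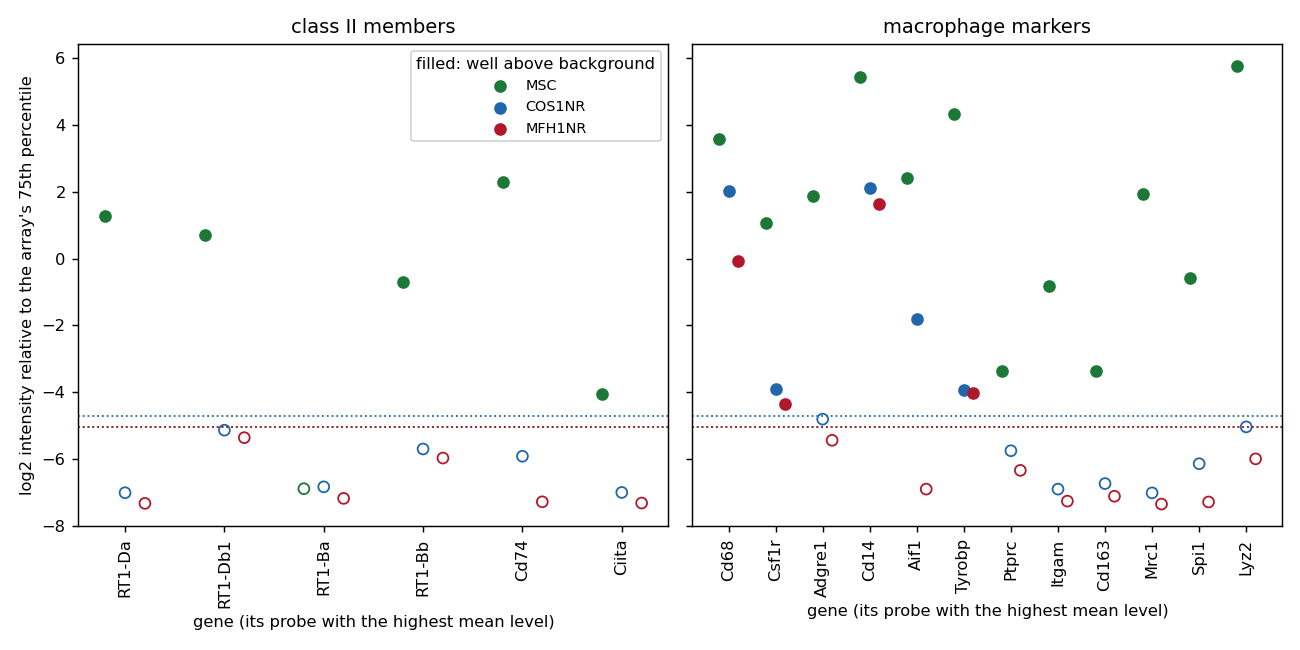
Log2 intensity relative to the 75th percentile of the array for the 6 class II members (left) and the 12 macrophage markers (right) in MSCs, COS1NR and MFH1NR, 1 array each. Filled points are well above background and dotted lines give the lowest such level per array. All 12 markers and 5 of 6 class II genes are filled in MSCs, while 5 markers remain filled in COS1NR and 4 in MFH1NR.

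Other genes of the class II route did not all follow the chains. RT1-Db2, a second DR-like β chain close in sequence to RT1-Db1, had 496 in MSCs, against 13.9 in COS1NR and 6.51 in MFH1NR, and was at least 22.2-fold and 27.8-fold lower. It too passed the filter through the MSC array alone, and could only be lower. The probes of RT1-Db1 and RT1-Db2 may share signal. RT1-DMa, a chain of the molecule that exchanges the invariant chain peptide for antigen, was well above background everywhere at 2628, 4587 and 4756, with log2 ratios of 0.41 for COS1NR and 0.10 for MFH1NR. Among the class II members and the other class II chains with a named probe, it alone was well above background in the sarcoma lines. RT1-DOa and RT1-DOb, which restrain that exchange, were dark on all arrays.

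Of 6 genes that prepare class II peptides, 2 were at least 2-fold lower in both lines, against 12.9% of all genes used, 3 in COS1NR (19.4%) and 5 in MFH1NR (21.2%). Cathepsin S (Ctss), which trims the invariant chain in bone marrow-derived cells, was well above background in MSCs only, so its direction was set by the filter. It had 3073 in MSCs, against 19.0 in COS1NR and 7.14 in MFH1NR and was at least 137-fold and 172-fold lower. Cathepsin B (Ctsb) had log2 ratios of -1.07 and -1.15, but of -0.67 and -0.39 without scaling and -0.91 and -0.93 with median scaling, which leaves Ctss alone past 2-fold in both lines. Ifi30, a thiol reductase induced by interferon-γ, had 8134, 2146 and 8670 and differed between the lines, with log2 ratios of -2.32 in COS1NR and -0.66 in MFH1NR, the latter 0.09 without scaling. Cathepsin L (Ctsl), which trims the invariant chain in the thymic epithelium, ran the other way, with 0.14 and -1.20. Without scaling, Ctsl and the other genes counted in MFH1NR, Lgmn and Ctsd, were at -0.44, -0.73 and -0.51 there. Of the 5 genes past 2-fold in MFH1NR, only Ctss then remained, so this count rests on the scaling. The median of the 6 log2 ratios was -0.88 in COS1NR and -1.23 in MFH1NR, against 0.11 and 0.02 over all genes used.

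The general factors that bind class II promoters beside Ciita were present on every array. All 7 (Rfx5, Rfxap, Rfxank, Nfya, Nfyb, Nfyc and Creb1) were well above background on all 3, as were 79.2% of the genes used. At least 2-fold lower in both lines were 0, against 12.9% of all genes used, so with 7 genes these counts do not set the factors apart. Rfxank, a subunit of the complex that binds the X box, had 1124 in MSCs, against 5387 in COS1NR and 5757 in MFH1NR, with log2 ratios of 1.87 and 1.60, and its 2 other probes gave 2.20 and 2.21 in COS1NR, against 1.76 each in MFH1NR. Nfya, a subunit of the factor that binds the Y box, had 1.05 and 1.25. Its partner Nfyb had 0.96 and 1.19 by its first probe, just short of 2-fold in COS1NR, and its 2 other probes gave 1.38 and 2.43 in COS1NR, against 1.68 and 2.94 in MFH1NR. By the first probe of each gene, at least 2-fold higher in both lines were 2 of 7, against 10.8% of all genes used. Rfxap was 2.13-fold lower in MFH1NR than in COS1NR, but this log2 ratio ran from -1.09 to -0.30 across the alternatives, so the 2-fold mark was not kept.

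Class I genes were present in all 3 cell types. All 4 class I members were well above background on all 3 arrays, 0 of 4 were at least 2-fold lower in either line, and 0 of 4 were at least 2-fold higher in both. Over all genes used, the shares were 79.2% on all arrays, 19.4% lower in COS1NR, 21.2% lower in MFH1NR and 10.8% higher in both, so with 4 genes these counts do not set class I apart. Their median log2 ratio was -0.31 in COS1NR and 0.33 in MFH1NR.

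B2m, the light chain of all class I molecules, had 78292 in MSCs, against 59260 in COS1NR and 73660 in MFH1NR by 1 probe. A second probe, printed 10 times, had 48298, 41163 and 51937, with SDs of 0.0575, 0.0231 and 0.0751 in log2 over its spots. After scaling, the log2 ratio to MSCs was -0.80 by the first probe and -0.62 by the second in COS1NR, and -0.84 and -0.65 in MFH1NR. Both probes placed B2m lower in both lines, by more than the median disagreement between probes but under 2-fold, and 19.8% and 20.3% of genes measured on both arrays had ratios as low. The lines differed by 0.05 or less in log2 by either probe, but by up to 0.74 with spike-in scaling. With spike-in scaling the ratio in COS1NR reached -1.07, and without scaling that in MFH1NR was -0.09, so the size of this difference rests on the scaling.

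The 5 genes whose pair of log2 ratios lay nearest to that of B2m, among 7931 well above background on all arrays, were Eef1akmt1, Cct5, Rhoq, Smg9 and Psmd8, at Euclidean distances of 0.00998 to 0.0331 over 2 ratios from 3 arrays. Cd74 was not well above background on all arrays and was given no such list.

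The transporter subunits parted from each other. Tap1 had 3089 in MSCs, against 4074 in COS1NR and 4548 in MFH1NR, with log2 ratios of 0.01 and -0.20 to MSCs and of -0.20 between the lines, and its sign changed with the scaling. Tap2 had 4054, 3443 and 12445 in the same order. MFH1NR thus stood highest and COS1NR lowest, with log2 ratios to MSCs of 0.86 and -0.63. Tap2 was 2.81-fold higher in MFH1NR than in COS1NR, and 5.51% of 8181 genes measured on both arrays were as high. Of the 4 members with a ratio between the lines, Tap2 alone was at least 2-fold apart, against 11.7% of genes higher and 14.2% lower in MFH1NR among all genes used. The class II members had no such ratio, being well above background in neither line. This comparison lay within 1 slide, and the log2 ratio of 1.49 exceeded the 0.59 that 1 gene in 10 exceeds between its own probes, but Tap2 had a single probe with a single spot.

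Tapbp had 1123 in MSCs, against 2686 in COS1NR and 3535 in MFH1NR. It was 1.82-fold higher in COS1NR and 1.87-fold higher in MFH1NR than in MSCs, and the lines differed by 0.03 in log2. Across the scalings tried, its log2 ratio ran from 0.59 to 1.26 in COS1NR and from 0.82 to 1.65 in MFH1NR, so the direction was kept and the 2-fold mark was not.

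The proteasome genes beside Tap2 were also highest in MFH1NR, but lowest in MSCs. Psmb8, the immunoproteasome subunit encoded next to Tap2, had 1281 in MSCs, against 2654 in COS1NR and 14373 in MFH1NR, which gave log2 ratios of 0.66 for COS1NR and 2.73 for MFH1NR, and it was 4.21-fold higher in MFH1NR than in COS1NR. Psmb9, the subunit next to Tap1, had 4865, 7886 and 18707, with log2 ratios of 0.30 and 1.19, and was 1.85-fold higher in MFH1NR. The other immunoproteasome genes, Psmb10 and the activator subunits Psme1 and Psme2, were between 0.25 and 0.58 higher in log2 in MFH1NR than in COS1NR. All 5 genes of this list were thus higher in MFH1NR, with a median log2 ratio of 0.58 against -0.09 over all genes used, and 1 (Psmb8) passed 2-fold, against 11.7% of all genes used. Across the alternatives this log2 ratio reached 1.68 for Psmb9, 1.37 for Psme1, 1.24 for Psme2 and 1.04 for Psmb10, so the count rests on the scaling.

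On the reference assembly, Tap2, Psmb8, Tap1 and Psmb9 follow each other in this order between the class II chains and RT1-DMa. From RT1-Da to Tapbp, 31 protein-coding genes are listed, of which 20 had a ratio between the lines. The log2 ratios ran from -0.84 to 2.08 with a median of -0.19. Only Tap2 and Psmb8 were at least 2-fold higher in MFH1NR, which is near the 11.7% of all genes used, and 0 were at least 2-fold lower, against 14.2%. Tap1 lies between Psmb8 and Psmb9 and was not higher in MFH1NR. Across the alternatives the log2 ratio between the lines reached 1.68 for Psmb9 and 0.59 for Tap1, so both statements rest on the scaling.

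**Figure D4:**
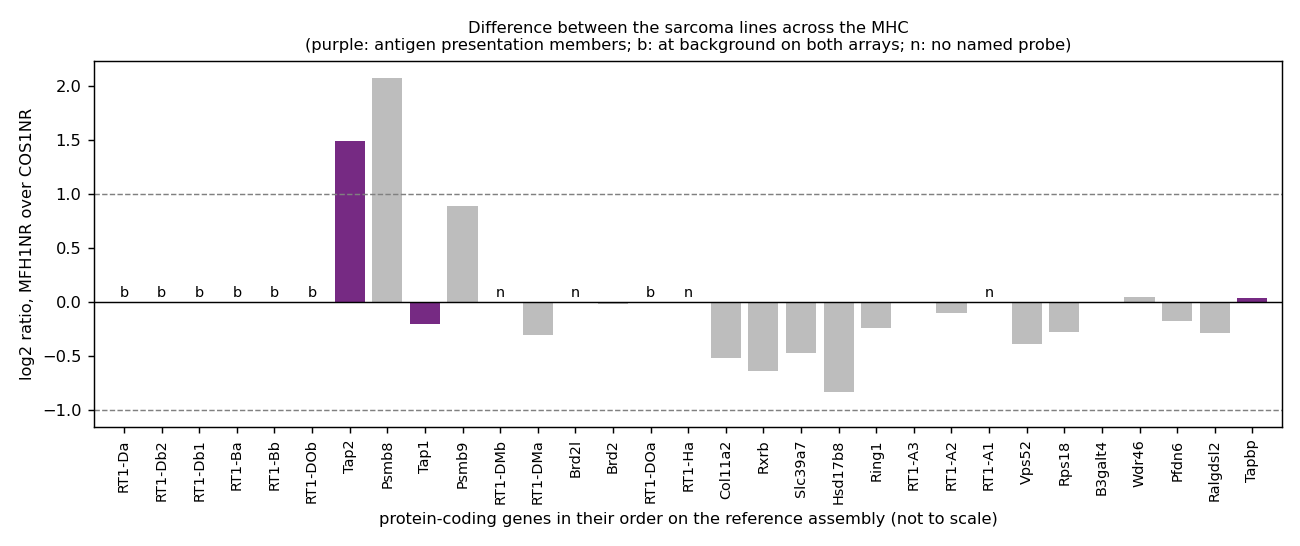
Log2 ratio of MFH1NR to COS1NR for the 31 protein-coding genes from RT1-Da to Tapbp, in their order on the reference assembly (spacing not to scale, 1 array per line). Purple bars are antigen presentation members, the letter b marks genes not well above background on both arrays, n genes without a named probe, and dashed lines 2-fold. Tap2 at 1.49 and Psmb8 at 2.08 are the only bars beyond 2-fold.

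The class I heavy chains were mostly lower in the sarcoma lines, by about as much as B2m. Of 17 RT1 class I chains used, 12 had lower levels in both lines than in MSCs, by any amount, and 4 higher levels in both, where 35.2% of all genes used were lower in both. The share of all genes higher in both by any amount was not taken, so the 4 cannot be read against it. The 17 had median log2 ratios of -0.93 in COS1NR and -0.84 in MFH1NR and of 0.00 between the lines. These values rest on the scaling. Without it, RT1-CE1 moved to -0.58 in COS1NR and -0.19 in MFH1NR, RT1-CE16 to -0.26 and 0.07, and RT1-A3 to 0.06 and 0.43, and RT1-CE2 ran from -0.02 to 0.78 between the lines across the alternatives. RT1-A2, a classical class I chain, had 45046 in MSCs, against 28944 in COS1NR and 34646 in MFH1NR, with log2 ratios of -1.03 and -1.13. RT1-CE2, RT1-CE4 and RT1-CE7 had between -1.15 and -1.36 in COS1NR and between -1.16 and -1.42 in MFH1NR. RT1-CE10, which was not well above background in MSCs, was higher by at least 3.44-fold in COS1NR and 4.42-fold in MFH1NR, RT1-N3 had 1.65 and 1.87, and RT1-T18 1.07 and 1.17.

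These chains are near-identical paralogs, so their probes can share signal and single chains are uncertain. Second probes gave other values. That of RT1-A2 gave -0.12 and -0.13, that of RT1-CE4 -0.22 and -0.16, and that of RT1-CE5 0.96 and 0.84 against -0.88 and -0.91 by the first. That of RT1-S3 gave at most -4.45 in COS1NR and -3.76 in MFH1NR, against -0.95 and -0.84 by the first. The number of class I chains past 2-fold therefore depends on the probe.

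Class I-like molecules that are not in the RT1 cluster varied among themselves. Cd1d1, which presents lipids to natural killer T cells, had 1817 in MSCs, against 246 in COS1NR and 3422 in MFH1NR, and was 10.8-fold higher in MFH1NR than in COS1NR. Fcgrt, the neonatal Fc receptor that salvages IgG and albumin, had 13991, 3680 and 4678, and was 4.99-fold and 5.05-fold lower in COS1NR and MFH1NR. Hfe, a regulator of iron uptake, had log2 ratios of only -0.16 and -0.55, and Mr1 was dark on all arrays. Of 20 class I and class I-like chains used, 5 were at least 2-fold lower in both lines and 3 higher, against 12.9% and 10.8% of all genes used. Without scaling, RT1-A2, RT1-CE2, RT1-CE4 and RT1-CE7 had between -0.64 and -0.96 in COS1NR and between -0.38 and -0.66 in MFH1NR. Only Fcgrt then stayed 2-fold lower in both lines. The chain RT1-M5, not counted as higher, reached 1.76 and 1.43 across the alternatives, so these counts rest on the scaling.

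Of the peptide loading genes, calreticulin (Calr), calnexin (Canx) and the oxidoreductase Pdia3 were within 2-fold of MSCs in both lines. Tapbpl, a tapasin-related peptide editor, had 324 in MSCs, against 548 in COS1NR and 175 in MFH1NR, and was 4.02-fold lower in MFH1NR than in COS1NR. Its order among the arrays was thus the reverse of that of Tap2.

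Several genes that carry or respond to the interferon signal were lower in both lines. Irf1, an activator of class I and of Tap1, had 6956 in MSCs, against 401 in COS1NR and 625 in MFH1NR, and was 22.8-fold and 18.8-fold lower, with 1.32% and 1.73% of the genes measured on both arrays as low. Socs1, a feedback inhibitor of interferon signalling, had 331, 46.8 and 115, and was 9.30-fold and 4.88-fold lower. The interferon-γ receptor chain Ifngr1 was 2.38-fold and 4.16-fold lower. Over the 8 regulators used, 3 were at least 2-fold lower in both lines and 0 higher, against 12.9% and 10.8% of all genes used. Without scaling the log2 ratio of Ifngr1 was -0.86 in COS1NR, under 2-fold, which leaves Irf1 and Socs1 past 2-fold in both lines.

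Of 6 costimulatory genes, which antigen-presenting cells need to activate T cells, 4 had a named probe and 2 were used, and both were at least 2-fold lower in both lines, against 12.9% of all genes used. Cd86, which passed the filter through the MSC array alone and so could only be lower, had 182 in MSCs and 7.13 and 7.08 in COS1NR and MFH1NR, at least 8.15-fold and 10.2-fold lower. Cd40 had 2799, 1499 and 1416 and was 2.45-fold and 3.34-fold lower, with nearly the same ratios by its second probe. Without scaling its log2 ratios were -0.90 and -0.98, under 2-fold in both lines. Cd80 and Pdcd1lg2 were dark on all arrays.

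Over all pathway lists, 61 of 81 genes had a named probe and 54 were used. Of these, 13 were at least 2-fold lower in both lines and 5 higher, against 12.9% and 10.8% of all genes used, with median log2 ratios of -0.62 in COS1NR and -0.74 in MFH1NR. Between the lines, 3 (Ifi30, Cd1d1 and Psmb8) were at least 2-fold higher in MFH1NR and 3 (Ctsl, Rfxap and Tapbpl) lower, against 11.7% and 14.2% of all genes used. Across the alternatives Ifi30, Cd1d1, Psmb8 and Tapbpl stayed past 2-fold. The log2 ratio between the lines ran from -1.47 to -0.55 for Ctsl and from -1.09 to -0.30 for Rfxap. Other genes, among them Psmb9 at up to 1.68, passed 2-fold higher under some alternatives, so these counts rest on the processing. Without scaling between the arrays, the counts against MSCs became 6 lower and 8 higher.

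**Figure D5:**
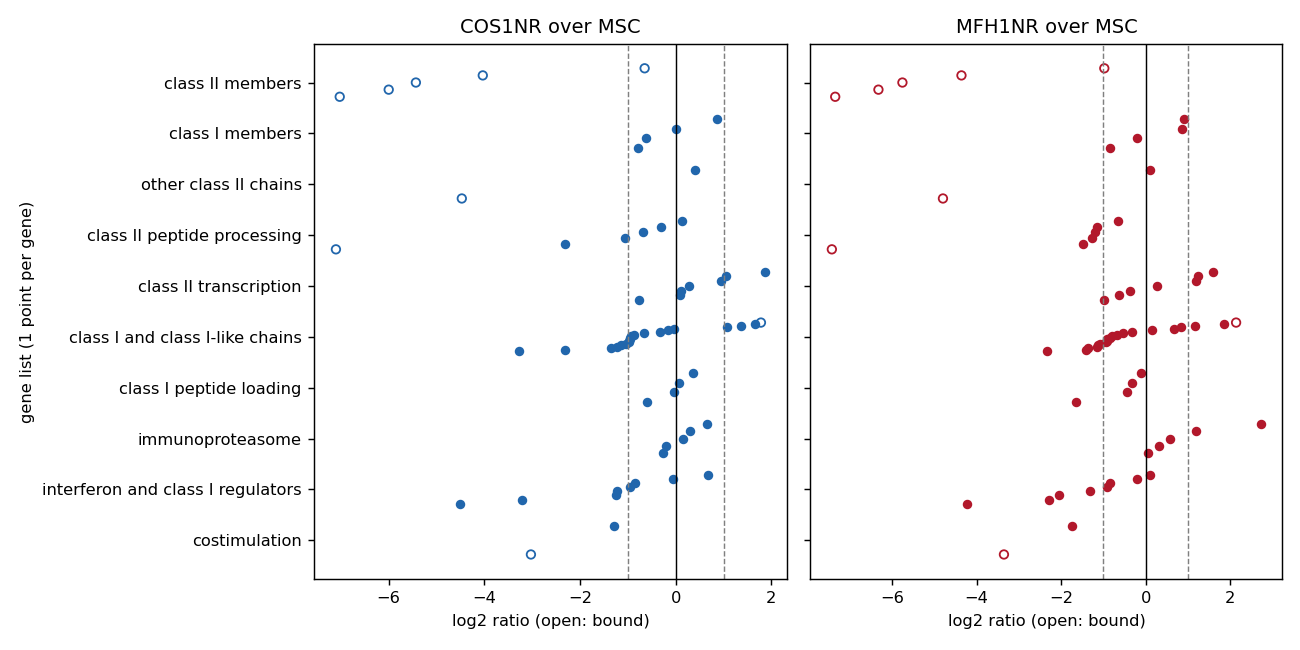
Log2 ratio to MSCs of every gene used in the members' lists and the 8 pathway lists, for COS1NR (left) and MFH1NR (right), 1 array per cell type. Each point is 1 gene, open points are bounds, and dashed lines mark 2-fold. Ctss, RT1-Db2, Irf1 and the class II members other than Ciita lie furthest to the left, and Psmb8 in MFH1NR lies furthest to the right at 2.73.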

How the data were processed

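RNA of MSCs, COS1NR and MFH1NR was measured on 1 Agilent whole rat genome array each. The authors deposited the processed intensity of each spot from Agilent Feature Extraction (version 10.5.1.1 per the file headers, 9.1 per the labels), in which background is subtracted, spatial trends are removed and values at or below background are replaced by a surrogate. The deposited series table held the same intensities. For RNA isolation and labeling, the methods and the labels name different kits.

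From these, log2 intensities were taken relative to the 75th percentile of each array. Control spots and spots called outliers (187 to 217 per array) were left out, spots of a probe were averaged, and probes were named through their RefSeq accessions with a GRCr8 gene table (16745 probes). Each gene took the value of the probe with its highest mean log2 intensity over the arrays, and entered the counts if over 0.5 of that probe's spots were well above background on at least 1 array. Genes at least 2-fold apart were counted, with ratios against a dim array given as bounds. The number of arrays limits the precision, and no test was made. The members and the lists were chosen with earlier results of these data known. Named are all members, and of the pathway lists the genes at least 2-fold from MSCs in both lines or between the lines, further genes being given to describe a list. Some genes of the lists are not reported here by name.

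Alternatives covered scaling, probe choice, bounds, filters and threshold. A normexp correction on the median spot intensity (offset 50) was added after the data were seen. The counting step was tested on simulated data. Python 3.11.15 (numpy 2.4.6, pandas 2.3.3, matplotlib 3.10.9) was used, and limma 3.58.1 under R 4.3.3 for normexp. Promoter sequences are those of RefSeq on GRCr8.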

Additional observations from a re-analysis of the deposited data

Results flagged for a closer look

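Tap2 moved in opposite directions from MSCs in the sarcoma lines, with log2 ratios of -0.63 for COS1NR and 0.86 for MFH1NR, a difference of 1.49. Tapbpl did so in reverse, with 0.36 in COS1NR and -1.64 in MFH1NR, a difference of -2.01. With 1 array per line, neither difference was tested.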

How the results depend on the processing

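With 1 array per cell type, no test was possible, and the software's background call limits the ratios of the class II members to bounds. No member past 2-fold changed sign under any alternative run, and of 276 alternative values of members, 205 stayed within the spread between probes. For the class II members a change of sign was excluded in advance wherever a bound was used, so its absence says nothing about them. RT1-Da, RT1-Db1, RT1-Bb and Cd74 stayed at least 2-fold lower under every alternative that gave them a value, with the smallest size for RT1-Db1 as the mean of its probes, at -3.04 in COS1NR. Tap2 kept a log2 ratio of 1.49 to 2.28 between the lines.

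With the genes restricted to those well above background on every array, the class II genes drop out by construction, so 0 members instead of 4 were lower, in COS1NR, in MFH1NR and in both, and the members' median log2 ratios became -0.31 in COS1NR and 0.33 in MFH1NR. Without bounds they were -2.94 and -3.26, and -0.22 between the lines, with 1 member in place of 0 lower in MFH1NR than in COS1NR. Without scaling they were -0.40, -0.22 and 0.35, with spike-in scaling (7 probes) -0.46 in MFH1NR and 0.79 between the lines, and with quantile normalization 0.20 between the lines. Members at least 2-fold higher in both lines were 1 (Tapbp) with no scaling and with median scaling. Pathway genes lower in both lines, 13 in the report, were 6 without scaling, 8 with spike-in scaling and 6 at 3-fold, and those higher, 5 in the report, were 8 without scaling, 3 at 3-fold and 2 with normexp. Over all genes the median was 0.52 for COS1NR and 0.79 for MFH1NR without scaling, 0.28 and 0.23 with median scaling and -0.16 and 0.55 with spike-in scaling, and 0.27 and 0.71 between the lines without scaling and with spike-in scaling. Normexp on mean spot intensities and naming by a gene column of the files were not run, since the files used here hold neither column.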
